A study of Mus musculus with 5 samples.

Results

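The genes described here are the semaphorins and their plexin and neuropilin receptors, the Slits and their Robo receptors, and the ephrins and their Eph receptors. They were chosen by symbol alone (*Sema*, *Plxn*, *Nrp1*, *Nrp2*, *Slit*, *Robo*, *Epha*, *Ephb*, *Efna* and *Efnb* with their numbers and letters), which gave 60 of the 55450 genes of the reference. Of these 60 genes, 52 had tags in at least 1 library, 33 had tags in all 5 libraries and 8 had none. Expression was measured by Tag-seq, which counts a short tag next to an NlaIII site of each poly(A) transcript, in hearts from mouse embryos at embryonic day 10.5 (Theiler stage 17). Wild-type C57BL/6 embryos gave 4 libraries, from the atrioventricular canal (AVC), the outflow tract (OFT), the atria and the ventricles. The fifth library came from the AVC of *Twist1* knockout embryos on an ICR background, so strain and genotype differ together and cannot be told apart. Each library was made from dissected tissue pooled from several litters, and each group has 1 library.

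These ligands and receptors pass guidance signals between neighbouring cells. Semaphorins signal through plexins, and the secreted class 3 members mostly need a neuropilin as co-receptor. Slits are secreted ligands of Robo receptors. Ephrins and Eph receptors both sit in the cell membrane and can signal into both cells in contact, ephrin-A proteins held by a lipid anchor and ephrin-B proteins by a transmembrane segment. In the developing heart such signals are known from the septation of the outflow tract, the growth of vessels and the formation of the endocardial cushions, the swellings of the AVC and OFT from which valves form.

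The files list tag types with more than 5 tags, and they sum to 4223810 to 6075421 tags in the wild-type libraries and to 12977237 tags in the null. Levels are tags per 1000000 listed tags (TPM), and a single tag type had to reach 0.462 TPM (null) and 0.988 to 1.42 TPM in the wild-type libraries to be listed. A gene given at 0 may therefore still be transcribed. Intervals are exact 95% binomial (Clopper-Pearson) intervals and cover counting error only. Each test is edgeR's exact test at a dispersion of 0.12. It compares libraries, not conditions, because nothing measures the spread between pools of embryos. A gene is called at an unadjusted exact p under 0.05. A ratio against a side with no listed tags is a bound, with 5 tags set for each missing tag type. Because scaling, unlisted tags and tag composition bear on these ratios, calls are described as kept when they also passed under 5 changes. These were TMM scaling, 5 tags for each unlisted tag type, both together, a correction for the GC content of tags, and that correction with TMM.

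*Twist1*, the gene removed in the null, was listed at 918 TPM (AVC), 299 (OFT), 63.4 (atria), 55.9 (ventricles) and 4.55 (null). The library labelled ventricles held 6196 TPM of the ventricular myosin light chain gene *Myl2* against 55.5 TPM in the atria library. The library labelled atria held only 18.2 TPM of *Nppa*, an atrial natriuretic peptide gene, below the 316 TPM of the AVC. Among the other cardiomyocyte markers, *Myl7* (1088 against 775 TPM) and *Myh6* (196 against 142 TPM) were higher in the atria than in the ventricles. *Myh7* (5.79 against 191 TPM), *Actc1* (5782 against 13856 TPM) and *Tnnt2* (198 against 453 TPM) were lower. Haemoglobin made up 21.5% of listed tags in the atria and 4.67% in the ventricles, against 0.242% (AVC), 0.307% (OFT) and 2.73% (null). Tags that begin with T formed 13.6% of tags in the AVC and 15% in the OFT, against 32.1% (atria), 22.2% (ventricles) and 32.4% (null). Tags of the 60 genes had a mean GC content of 41.8% in the AVC and 40.6% in the OFT, against 31.0% (atria), 30.7% (ventricles) and 37.4% (null). A single *Plxnb1* tag of 17.6% GC weighed heavily in the chamber means. It gave 960 of the 2260 tags of these genes in the atria and 683 of 2110 in the ventricles, against 74 of 7336 in the AVC. For all genes other than haemoglobin the mean ranged from 39.1% to 43.4%.

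The tags that carry most of the results are shown first, since each level is a count of these sequences. The most abundant tag was taken for 33 of the 34 genes called in at least 2 comparisons, all but *Sema6a*, and 10 of these tags are printed, chosen after their values were seen because the results below turn on them. Capitals mark the NlaIII site, lower case the 17 bases after it.
Sema3c: CATGagaatttaattagatgt
Nrp2: CATGcactagtgtagtcttgc
Plxnb1: CATGaaaataaaaatgttacc
Plxnb2: CATGgcctccccttcccacgc
Robo1: CATGtaagaaacctctttatt
Efnb1: CATGgaaggagctgggcctta
Efnb2: CATGacagttaagccccagaa
Epha3: CATGgttcatttagtttatgt
Epha4: CATGaactttaggtacacata
Ephb3: CATGagtgtgtacaagcttgg
All 10 lie in a 3′ untranslated region (UTR) at the last NlaIII site of a transcript. On GRCm38 they stand at chr5:17730199-17730219 (*Sema3c*, + strand), chr1:62798730-62798750 (*Nrp2*, +), chr9:109119883-109119903 (*Plxnb1*, +), chr15:89155946-89155966 (*Plxnb2*, −) and chr16:73045990-73046010 (*Robo1*, +). The others stand at chrX:99148740-99148760 (*Efnb1*, +), chr8:8617520-8617540 (*Efnb2*, −), chr16:63543634-63543654 (*Epha3*, −), chr1:77367301-77367321 (*Epha4*, −) and chr16:21223226-21223246 (*Ephb3*, +). Their GC content, over the 17 bases, runs from 17.6% for *Plxnb1* and *Sema3c* to 76.5% for *Plxnb2*. Each makes up 58.2% or more of its gene's tags. Among all 185 tag types of the 60 genes, 149 lie in a 3′ UTR and 32 in coding sequence. Coding tag types numbered 19 (AVC), 17 (OFT), 1 (atria), 0 (ventricles) and 9 (null).

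Summed over the 60 genes, the level was 1207 TPM (AVC) and 1214 TPM (OFT), and lower in the atria (484 TPM) and the ventricles (499.5 TPM), with 903.5 TPM (null). The libraries held tags of 49 (AVC), 44 (OFT), 38 (atria), 38 (ventricles) and 50 (null) of these genes. Of 51 genes with tags in a wild-type library, the highest wild-type level was in the OFT for 26, in the AVC for 18, in the ventricles for 5 and in the atria for 2. No tags were listed for *Slit1*, *Sema4f*, *Sema6b*, *Efna3*, *Epha5*, *Epha6*, *Epha8* and *Epha10*. *Robo3* had tags in the ventricles alone (1.42 TPM) and *Sema3e* in the null alone (0.694 TPM). In 14 genes with tags no library reached 5 TPM.

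**Figure D1:**
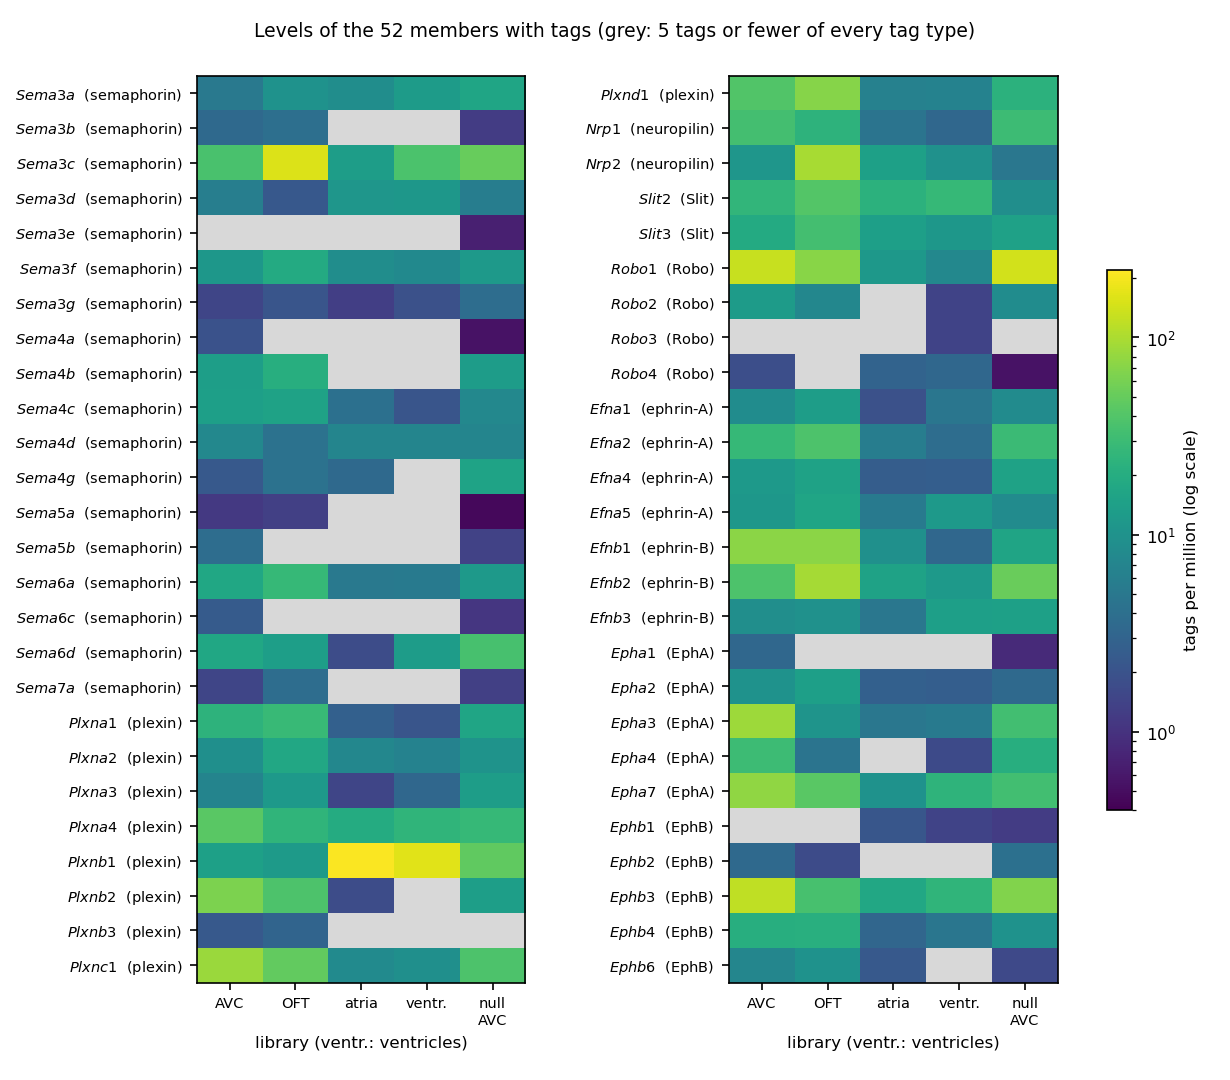
Level of each of the 52 genes with tags in each library, as colour on a log scale in TPM, 1 library per column, with grey where no tag type had more than 5 tags. The atria and ventricle columns hold the most grey cells, while *Plxnb1* is brightest there (214 and 166 TPM).

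The first comparison asked which guidance genes stood higher in the cushion-forming AVC and OFT than in the chambers, taken as the summed atria and ventricles. Against the chambers, 30 of 51 genes tested were called higher in the AVC, where 43.4% of all 12503 genes were, and 2 were called lower, against 8.12% of all genes. In the OFT 27 of 47 genes were called higher, against 40.6% of 12451 genes, and 4 lower, against 8.88%. Of the calls, 23 genes were higher in both the AVC and the OFT, 7 only in the AVC and 4 only in the OFT, but both comparisons share the same chamber libraries. The share of all genes called higher in both was not computed, so this split is not shown to be particular to these genes. The median log2 ratio of the genes tested was 1.39 (AVC) and 1.76 (OFT), with bounds counted as ratios, against 0.93 and 0.82 for all genes. TMM scaling moved the median of all genes to 0.02 and 0.01, and 21 AVC genes were then called higher and 5 lower, against 22 and 4 for the OFT. On that scale the median of the genes described here was 0.48 (AVC) and 0.94 (OFT). These counts compare with 26.2% and 16.9% of all genes for the AVC, and 26.6% and 17.0% for the OFT. After GC correction 34 and 3 genes were called in the AVC (45.7% and 8.77% of all genes) and 29 and 3 for the OFT (42.1% and 10.8%). GC correction with TMM left 21 and 3 for the AVC (29.3% and 16.9%), with 24 and 5 for the OFT (28.9% and 18.6%). Chamber levels at 0 stood behind 10 of the 30 higher calls in the AVC and 6 of the 27 for the OFT. With 5 tags for each unlisted tag type, 19 genes were called higher and 1 lower in the AVC (28.0% and 5.34% of all genes), and 20 and 2 for the OFT (25.6% and 5.69%). With TMM in addition, these were 9 and 3 for the AVC (10.7% and 14.4%), with 12 and 3 for the OFT (11.5% and 13.7%). Kept under all 5 changes were 8 genes higher in the AVC and 10 genes higher in the OFT. *Plxnb1* was the only gene whose lower call was kept, in both. The share of all genes kept under all 5 changes was not computed, here or for the calls below.

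Markers of cell types differed between the same libraries. All 7 cushion mesenchyme markers were called higher in the AVC and in the OFT, summed to 3274 and 3421 TPM against 217 TPM (atria) and 212 TPM (ventricles), where *Prrx1* was at 0 in both chambers and *Snai2* at 0 in the atria. All 6 erythroid markers were called lower, at 2422 and 3079 TPM against 215353 and 46710 TPM. Of 7 endothelial and endocardial markers, 3 were called higher in each and 1 lower in the AVC, with sums of 424 and 477 TPM against 180 and 243 TPM. Of 7 cardiomyocyte markers, the AVC had 5 higher calls and 1 lower call and the OFT 4 higher calls, with sums of 19738 and 21865 TPM against 7343 TPM (atria) and 21643 TPM (ventricles). Smooth muscle and pericyte markers were called higher for 4 of 5 tested in the AVC and 4 of 4 for the OFT, and summed to 153 TPM (atria) and 257 TPM (ventricles) against 312 and 1032 TPM. Of 5 epicardial markers, 1 was called higher in each and 3 lower for the OFT, whose sum was 78.8 TPM against 242 TPM (AVC), 279.9 (atria) and 241 (ventricles). Of all genes, 43.4% and 40.6% were called higher and 8.12% and 8.88% lower. With TMM, smooth muscle and pericyte markers had 1 higher call in the AVC and 3 for the OFT. Epicardial markers then had 2 lower calls (AVC) and 4 (OFT), and cushion mesenchyme markers 6 higher calls in each. Cardiomyocyte markers had 4 higher and 2 lower calls (AVC), and 3 and 1 (OFT). Endothelial and endocardial markers had 3 and 1 in both. With TMM, 26.2% of all genes were called higher and 16.9% lower in the AVC, and 26.6% and 17.0% for the OFT. The neural crest and neural markers summed to 0 to 19.2 TPM, with *Foxd3* and *Tfap2b* at 0 in all 5 libraries. The part of cell composition, tag base content and haemoglobin in the ratios was not tested beyond the changes named above. In such tissue pools fewer cells of a type and less RNA per cell cannot be told apart.

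**Figure D2:**
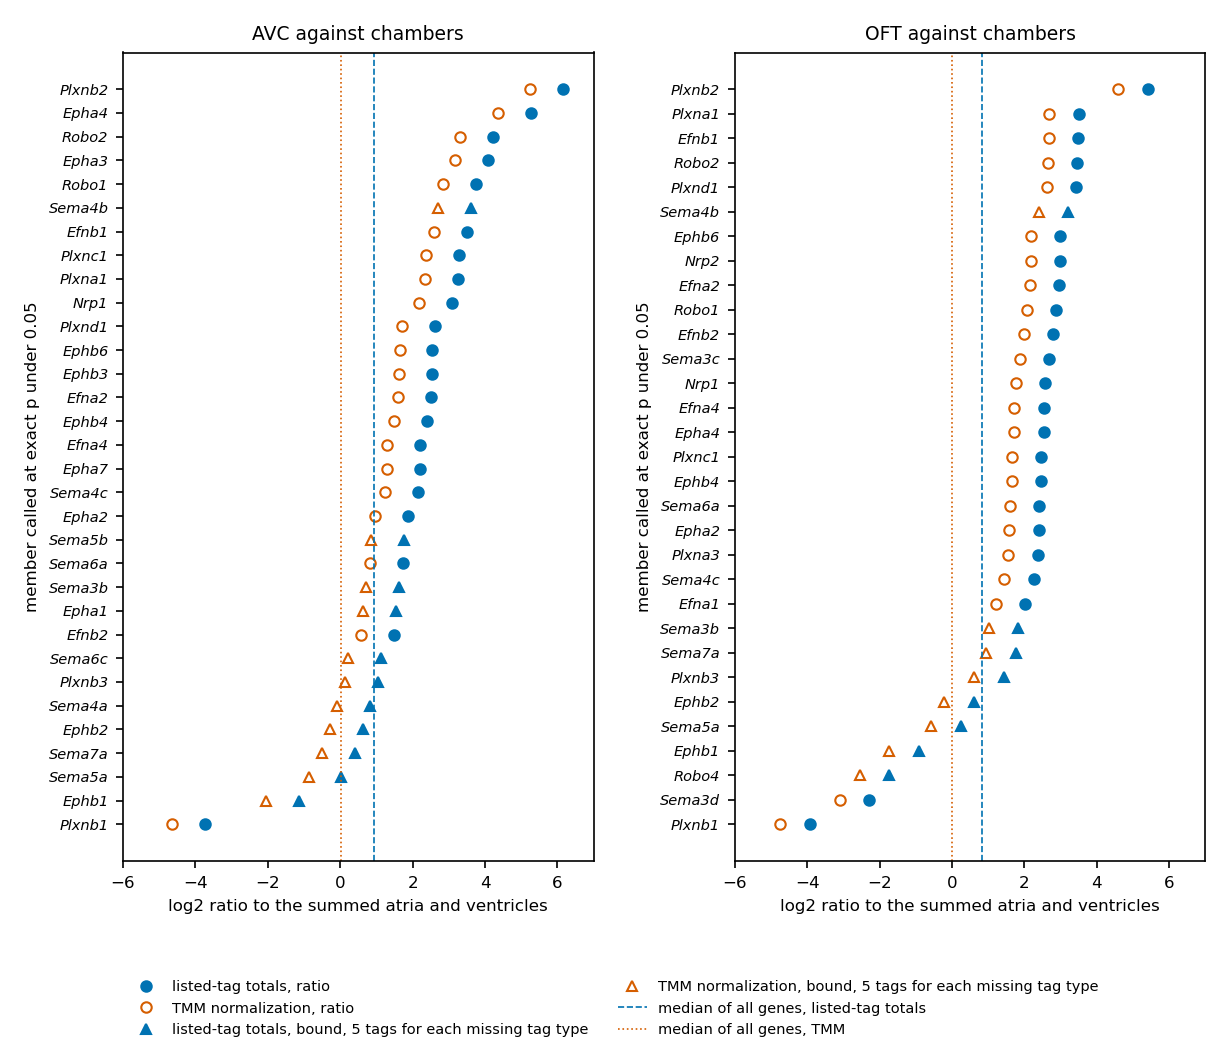
Log2 ratio of the AVC (left) and the OFT (right) to the summed atria and ventricles for each gene called, with listed-tag totals (filled) and TMM scaling (open), circles for ratios and triangles for bounds. The dashed and dotted lines mark the median of all genes on the same scalings (0.93 and 0.02 in the left panel, 0.82 and 0.01 in the right), and *Plxnb1* stands farthest to the left in both panels.

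The semaphorins, the largest family with 20 genes, included 18 with tags. *Sema3c*, a secreted semaphorin known for its need in outflow tract septation, was listed at 158 TPM in the OFT, with a 95% interval of 148 to 169. It stood at 36.4 TPM (AVC), 13.3 (atria), 36.9 (ventricles) and 50.5 (null). The OFT alone was high, and the AVC and the ventricles overlapped in their intervals. *Sema3c* was 6.46-fold higher in the OFT than in the chambers (exact p = 0.000479, adjusted p = 0.00265) and 4.35-fold higher than in the AVC (exact p = 0.00504, adjusted p = 0.103).

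*Sema4b*, a membrane-bound class 4 semaphorin, was listed at 13.8 TPM (AVC), 20.9 (OFT) and 13.0 (null). No tags were listed in either chamber. Its bounds for the AVC were at least 12.3-fold (exact p = 1.29e-08, adjusted p = 6.1e-07) and for the OFT at least 9.28-fold (exact p = 9.79e-10, adjusted p = 7.92e-08), both kept under all 5 changes. Of the other class 4 genes, *Sema4c*, which binds plexin B2, was listed at 14.0 TPM (AVC) and 15 (OFT) against 4.07 (atria) and 2.13 (ventricles), but neither call passed with TMM. *Sema4d*, the ligand of plexin B1, stood between 4.37 and 7.57 TPM in all 5 libraries and was called in no comparison.

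*Sema3d*, another secreted class 3 semaphorin, showed the opposite order, with 10.9 TPM (atria), 11.4 (ventricles), 5.93 (AVC), 2.28 (OFT) and 5.86 (null). It was called 4.89-fold lower in the OFT than in the chambers (exact p = 0.00785, adjusted p = 0.0238), but this rested on a tag beginning with T. Without such tags the log2 ratio was 1.34 in the other direction, uncalled. *Sema3a*, a repellent ligand of neuropilin 1, was listed at 5.10 TPM (AVC), 10.1 (OFT), 8.79 (atria) and 12.8 (ventricles). *Sema3f*, a ligand of neuropilin 2, stood at 11.2, 18.8, 8.79 and 8.05 TPM in the same order, and *Sema6d*, a transmembrane ligand of plexin A receptors, at 17.0, 13.7, 1.71 and 13.0 TPM. None of the 3 passed the test against the chambers. *Sema3g*, a class 3 semaphorin, was low in every library (1.29 to 3.85 TPM) and was called in no comparison. *Sema6a*, also transmembrane, was at 17.1 TPM (AVC) and 27.5 (OFT) against 5.14 and 5.21 TPM in the chambers, and it lost its call in the AVC with TMM. The calls for *Sema3b*, *Sema4a*, *Sema5a*, *Sema5b*, *Sema6c* and *Sema7a* were all against chamber levels at 0, on levels of 1.15 to 3.99 TPM, and none was kept with 5 tags for each unlisted tag type.

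The plexins, the semaphorin receptors, did not move together. *Plxnb1*, the receptor of Sema4D, was listed at 214 TPM in the atria, with a 95% interval of 201 to 228, and at 166 TPM in the ventricles, with one of 154 to 179. It stood at only 14.3 TPM (AVC), 12.5 TPM (OFT) and 47.2 TPM (null). The chambers were higher than every cushion library, with no overlap of the intervals. *Plxnb1* was 13.4-fold lower in the AVC (exact p = 4.02e-06, adjusted p = 5.76e-05) and 15.3-fold lower in the OFT (exact p = 1.58e-06, adjusted p = 2.57e-05) than in the chambers. The GC-corrected log2 ratios were smaller, at -2.33 and -2.75 against -3.74 and -3.93. The printed AT-rich tag carried it, with 74 (AVC), 59 (OFT), 960 (atria), 683 (ventricles) and 527 (null) tags.

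*Plxnb2*, its close relative and a receptor for class 4 semaphorins, had the reverse pattern, with 63.7 TPM (AVC), 38.2 (OFT), 1.71 (atria), none listed in the ventricles and 13.9 (null). It was 70.8-fold higher in the AVC than in the chambers (exact p = 2.27e-10, adjusted p = 2.59e-08), and the OFT ratio was 42.4-fold (exact p = 2.2e-08, adjusted p = 8.55e-07). With 5 tags for each unlisted tag type the log2 ratios fell from 6.15 to 3.17 and from 5.41 to 2.98, and after GC correction they were 4.92 and 4.10. The tags of *Plxnb1* and *Plxnb2* lie at opposite ends of the GC range of those printed. The GC trend of all genes between the AVC and the chambers ran the same way as their ratios, with an offset of -0.87 on the log2 scale at 25% GC and 1.07 at 70%.

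*Plxna1*, a partner of neuropilins in class 3 semaphorin signalling, was at 23.7 TPM (AVC), 28.1 (OFT), 2.79 (atria), 2.13 (ventricles) and 16.3 (null). Its ratio to the chambers was 9.58-fold in the AVC (exact p = 0.000119, adjusted p = 0.000831) and 11.4-fold in the OFT (exact p = 3.25e-05, adjusted p = 0.0003). *Plxnc1*, the receptor of Sema7A, stood at 84.4 TPM (AVC), 47.8 (OFT), 8.14 (atria), 9.23 (ventricles) and 37.5 (null), with a ratio of 9.75-fold for the AVC (exact p = 3.97e-05, adjusted p = 0.000356). *Plxnd1*, the endothelial plexin, was listed at 39.8, 70.2, 6.43, 6.63 and 22.9 TPM in the same order, and its 10.8-fold ratio in the OFT (exact p = 2.34e-05, adjusted p = 0.000228) was kept under all 5 changes. All 3 stood higher in both cushion libraries than in both chambers. *Plxna2* (6.63 to 17.5 TPM) and *Plxna4* (19.3 to 43.8 TPM) were called in no comparison, and *Plxna3* was called in the OFT alone, without TMM. *Plxnb3* was listed at 2.30 TPM (AVC) and 3.04 TPM (OFT), with no tags in the chambers or the null.

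The 2 neuropilins, co-receptors of class 3 semaphorins and of VEGF, were distributed differently. *Nrp2* was listed at 96.6 TPM in the OFT, with a 95% interval of 88.4 to 105.4, and at 11 TPM (AVC), 14.4 (atria), 9.71 (ventricles) and 4.85 (null). Only the OFT was high, and the AVC and the chambers overlapped in their intervals. Its ratio was 7.95-fold against the chambers (exact p = 0.00015, adjusted p = 0.00104) and 8.76-fold against the AVC (exact p = 8.48e-05, adjusted p = 0.00878), kept under every alternative run. *Nrp1* was high in both, at 33.7 TPM (AVC) and 23.5 (OFT) against 4.50 (atria) and 3.31 (ventricles), with 30.1 TPM (null). It was 8.57-fold higher in the AVC than in the chambers (exact p = 0.000165, adjusted p = 0.00108) and 5.98-fold in the OFT (exact p = 0.00135, adjusted p = 0.00601). The AVC call did not pass with 5 tags for each unlisted tag type and TMM together, nor the OFT call with GC correction and TMM together.

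Among the Slits, *Slit2* stood at 25.5 TPM (AVC), 40.6 (OFT), 22.9 (atria), 27.2 (ventricles) and 9.02 (null). *Slit3* stood at 19.1, 33.4, 13.9, 11.4 and 14.7 TPM in the same order. Neither ligand was called against the chambers in either cushion library. Their receptor *Robo1* did differ. It was listed at 129.7 TPM (AVC), 71.0 (OFT), 11.6 (atria), 7.58 (ventricles) and 144 (null). The ratio to the chambers was 13.4-fold in the AVC (exact p = 4.27e-06, adjusted p = 6.07e-05) and 7.34-fold in the OFT (exact p = 0.000271, adjusted p = 0.00168), kept under every alternative run, including the one without tags that begin with T, as the printed *Robo1* tag does. *Robo2*, a second Slit receptor, was at 12.7 TPM (AVC), 7.40 (OFT), 0 (atria) and 1.42 (ventricles), and its calls did not pass with 5 tags for each unlisted tag type. *Robo4*, the Robo of vascular endothelium, was at 1.81 TPM (AVC), 3.00 (atria) and 3.31 (ventricles), with none listed in the OFT.

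**Figure D3:**
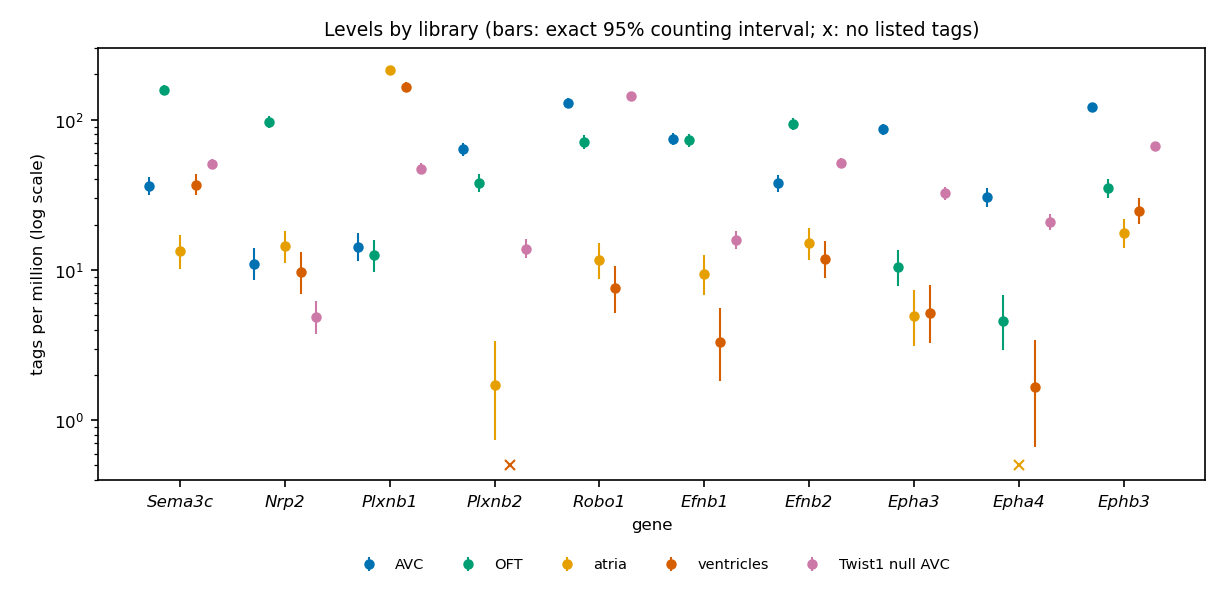
Levels of 10 genes in TPM on a log axis, with 1 point per library and bars for the exact 95% counting interval, and a cross where no tags were listed. *Sema3c* and *Nrp2* peak in the OFT (158 and 96.6 TPM), *Epha3*, *Epha4* and *Ephb3* in the AVC (86.4, 30.5 and 121 TPM), and *Plxnb1* in the atria and the ventricles (214 and 166 TPM).

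All 3 ephrin-B and 4 of 5 ephrin-A genes had tags in all 5 libraries. *Efnb1* was listed at 74.1 TPM (AVC), 73.1 (OFT), 9.43 (atria), 3.31 (ventricles) and 15.9 (null). Its ratio to the chambers was 11.4-fold in the AVC (exact p = 1.71e-05, adjusted p = 0.000179) and 11.2-fold in the OFT (exact p = 1.79e-05, adjusted p = 0.000183). *Efnb2*, the ephrin of arterial endothelium, was listed at 37.9 TPM (AVC), 93.8 (OFT), 15 (atria), 11.8 (ventricles) and 51.7 (null). It was 6.95-fold higher in the OFT than in the chambers (exact p = 0.000343, adjusted p = 0.00205), kept under all 5 changes, while the 2.80-fold ratio of the AVC (exact p = 0.0487, adjusted p = 0.0949) was lost with TMM. *Efnb3* ran from 4.93 TPM (atria) to 14.5 TPM (null) and was called nowhere.

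Of the ephrin-A genes, *Efna2* was at 27.3 TPM (AVC), 37.8 (OFT), 5.79 (atria), 3.79 (ventricles) and 29.4 (null), and its 7.81-fold ratio in the OFT (exact p = 0.00026, adjusted p = 0.00162) was kept under all 5 changes. *Efna1* was at 13.3 TPM and *Efna4* at 15 TPM in the OFT library, against 1.93 to 4.74 TPM for both in the chambers. *Efna5* (5.36 to 16.1 TPM) was not called. Of the 7 ephrin genes tested, 4 were called higher than the chambers in the AVC and 5 for the OFT, where 43.4% and 40.6% of all genes were. Kept under all 5 changes were *Efnb1* in the AVC, and *Efna2*, *Efnb1* and *Efnb2* for the OFT.

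Of 10 Eph receptor genes with tags, 6 had their highest wild-type level in the AVC. The 5 EphA genes with tags summed to 207 TPM there, 73.3 TPM (OFT), 17.8 (atria), 33.6 (ventricles) and 90.4 (null). *Epha3*, a receptor of ephrin-A ligands known for its role in forming the atrioventricular cushions and septum, was listed at 86.4 TPM in the AVC, with a 95% interval of 79.2 to 94.1. It stood at 10.4 TPM (OFT), 4.93 (atria), 5.21 (ventricles) and 32.4 (null). It was 17.1-fold higher in the AVC than in the chambers (exact p = 1.03e-06, adjusted p = 1.94e-05). The printed tag gave 482 (AVC), 44 (OFT), 0 (atria), 12 (ventricles) and 257 (null) of its tags. All 23 *Epha3* tags in the atria and 10 of the 22 tags in the ventricles belonged to another tag type, which ends in a run of A.

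*Epha4*, which binds both ephrin classes, was at 30.5 TPM (AVC), 4.56 (OFT), 0 (atria), 1.66 (ventricles) and 20.8 (null), a 38.7-fold ratio of the AVC to the chambers (exact p = 3.15e-08, adjusted p = 1.28e-06). The chambers held only 7 *Epha4* tags, all in the ventricles, so the size of this ratio rests on a level near the listing threshold. The ratio was smaller with TMM and with 5 tags for each unlisted tag type, but the call was kept under all 5 changes. *Epha7* was at 77.2, 44.0, 10.1, 24.2 and 32.8 TPM in the same order, and its 4.61-fold ratio in the AVC (exact p = 0.00388, adjusted p = 0.0132) was lost with TMM. *Epha2* stood at 9.88 TPM (AVC) and 14.2 (OFT) against 2.79 and 2.60 TPM in the chambers, also without a call under TMM. *Epha1* had tags in the AVC (3.29 TPM) and the null (0.848 TPM) alone.

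Among the EphB receptors *Ephb3* was the most abundant, with 121 TPM (AVC), 34.9 (OFT), 17.6 (atria), 24.9 (ventricles) and 66.7 (null). Its AVC level was 5.74-fold that of the chambers (exact p = 0.00101, adjusted p = 0.0046), lost only with GC correction and TMM together among the 5 changes (likelihood ratio p = 0.054). *Ephb4*, the ephrin-B2 receptor of veins, was near equal in the AVC and OFT (20.7 and 21.6 TPM) against 3.21 and 4.74 TPM in the chambers, with 9.94 TPM (null). *Ephb6*, whose kinase domain is inactive, was at 7.24 TPM (AVC) and 9.87 (OFT), 2.36 (atria) and 0 (ventricles). *Ephb1* had tags in the atria (2.14 TPM), the ventricles (1.42 TPM) and the null (1.23 TPM) but in neither wild-type cushion library, and *Ephb2* the reverse among wild-type libraries, with 3.46 TPM (AVC) and 1.71 (OFT).

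The second comparison set the 2 cushion-forming regions against each other. In the OFT 2 of 49 genes were called higher than in the AVC, against 5.22% of 12541 genes, and 8 lower, against 7.35%. The counts were again 2 and 8 with TMM (6.41% and 6.22% of all genes), with GC correction (6.33% and 8.89%) and with both (6.55% and 8.49%). They were 2 and 4 with 5 tags for each unlisted tag type (1.24% and 1.99%), and 2 and 3 when TMM was added (1.59% and 1.49%). The higher genes were the pair *Sema3c* and *Nrp2*, both kept under all 5 changes. Lower in the OFT and kept were 3 Eph receptors. *Epha3* was 8.28-fold lower (exact p = 0.00013, adjusted p = 0.0113), *Epha4* 6.68-fold lower (exact p = 0.000875, adjusted p = 0.0366) and *Ephb3* 3.46-fold lower (exact p = 0.017, adjusted p = 0.217). The other 5 (*Epha1*, *Robo4*, *Sema4a*, *Sema5b* and *Sema6c*) had no listed tags in the OFT and at most 3.79 TPM in the AVC. The GC trend that set the chambers apart was small here, with an offset of 0.08 on the log2 scale at 25% GC and 0.07 at 70%, against -0.87 and 1.07 for the AVC against the chambers. Smooth muscle and pericyte markers summed to 1032 TPM (OFT) and 312 TPM (AVC), with 2 of 5 called higher and *Myh11* at 0 in the OFT, and their part in these ratios was not tested.

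The third comparison asked which genes differed in the AVC lacking *Twist1*. In the null 4 of 51 genes were called higher than in the wild-type AVC, where 11.9% of 12963 genes were, and 6 lower, against 12.7%. The counts were 5 and 4 with TMM (14.9% and 9.36% of all genes), 3 and 7 with GC correction (12.7% and 15.0%) and 3 and 5 with both (15.2% and 11.2%). They were 2 and 5 with 5 tags for each unlisted tag type (5.89% and 10.8%), and 2 and 4 when TMM was added (8.38% and 7.41%). *Efnb1*, the ligand described above, was at 15.9 TPM in the null against 74.1 TPM in the AVC, 4.67-fold lower (exact p = 0.00346, adjusted p = 0.0418). The printed tag was at 7.94 TPM in the null against 39.0 TPM in the AVC, and 2 others were at 0.616 against 28.3 TPM and 4.08 against 5.6 TPM. The remaining 2 tag types were higher in the null, at 2.70 against 1.15 TPM and at 0.539 TPM against none listed. *Plxnb2* was at 13.9 TPM against 63.7 TPM, 4.59-fold lower (exact p = 0.00382, adjusted p = 0.0442). *Ephb6* was at 1.62 TPM against 7.24 TPM, 4.48-fold lower (exact p = 0.0124, adjusted p = 0.0913). *Plxnb3* had 14 tags in the AVC and none listed in the null, at least 5.98-fold lower (exact p = 0.000635, adjusted p = 0.0161). The calls of *Efnb1*, *Plxnb2*, *Ephb6* and *Plxnb3* were kept under all 5 changes, but only that of *Plxnb3* was kept under every alternative run. The lower calls of *Slit2* (2.83-fold, exact p = 0.049, adjusted p = 0.201) and *Epha1* (3.88-fold, exact p = 0.0436, adjusted p = 0.186) did not pass with TMM.

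Higher in the null were *Sema4g*, *Plxnb1*, *Sema3a* and *Ephb1*. *Sema4g*, a class 4 semaphorin, was listed at 15.7 TPM (null), 2.30 (AVC), 4.37 (OFT), 3.43 (atria) and 0 (ventricles), 6.82-fold higher than in the AVC (exact p = 0.000999, adjusted p = 0.0198). A tag beginning with T gave 176 of its 204 tags in the null, and without such tags the log2 ratio was at least 1.39, against 2.77 with them. The *Sema4g* call was kept under all 5 changes, but not under every alternative run. *Ephb1* was at 1.23 TPM against 0 in the AVC, a log2 ratio of at least 0.58 (exact p = 0.0078, adjusted p = 0.0673), and this call did not pass with 5 tags for each unlisted tag type. *Plxnb1*, low in the wild-type AVC, was 3.30-fold higher (exact p = 0.0229, adjusted p = 0.131), but GC correction ended this call (likelihood ratio p = 0.182). *Sema3a*, at 16.3 TPM against 5.10 TPM, was 3.19-fold higher (exact p = 0.0341, adjusted p = 0.162). The call rested on tags beginning with T, which form a larger share of all tags in the null library, and it was lost without them.

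Several genes with high AVC levels were not called in the null. *Robo1* was at 144 TPM (null) and 129.7 TPM (AVC), *Ephb3* at 66.7 and 121 TPM, *Plxnc1* at 37.5 and 84.4 TPM and *Epha3* at 32.4 and 86.4 TPM. *Epha3* was called lower under some alternatives, the GC correction and the omission of tags beginning with T among them. A p that misses the threshold, with 1 library on each side, does not show that levels were alike. Cushion mesenchyme markers summed to 544 TPM (null) against 3274 TPM (AVC), with 5 of 7 called lower (12.7% of all genes), *Twist1* among the list and no marker at 0. Erythroid markers summed to 27350 against 2422 TPM, with 4 of 6 called higher (11.9% of all genes). The part of these markers, of strain and of the share of T-starting tags in the ratios was not tested beyond the changes given.

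**Figure D4:**
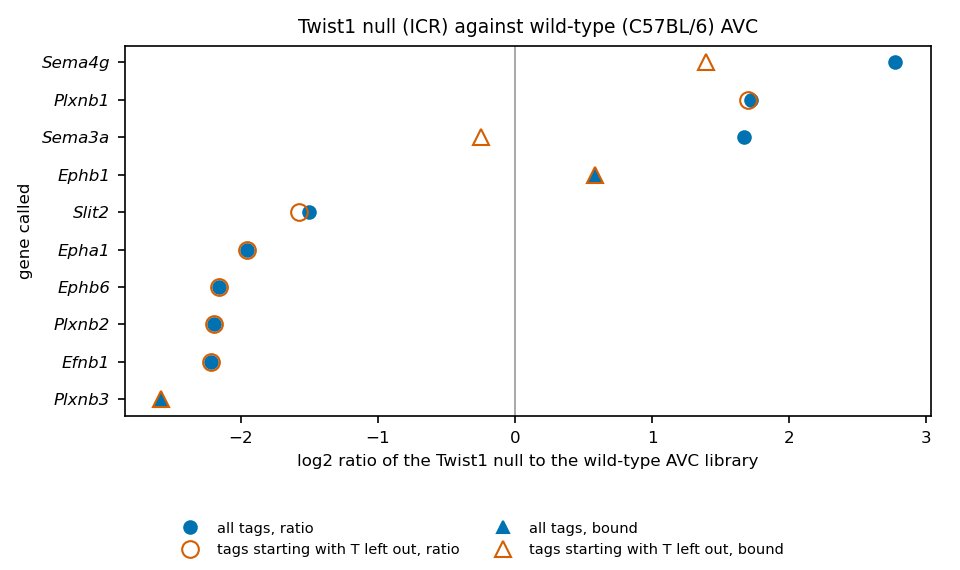
Log2 ratio of the *Twist1* null to the wild-type AVC library for the 10 genes called, with all tags (filled) and with tags beginning with T left out (open), circles for ratios and triangles for bounds. The open symbols fall on or near the filled ones except for *Sema4g* (at least 1.39 against 2.77) and *Sema3a* (at least -0.25 against 1.67), each with no tags left in the AVC.

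Genes of neighbouring pathways gave a background. Of 21 other guidance ligands and receptors, such as netrins and their receptors, 17 had tags, and against the chambers 7 of 15 tested were called higher in the AVC with 1 lower (43.4% and 8.12% of all genes), and 8 of 16 with 2 lower for the OFT (40.6% and 8.88%). With TMM these counts were 5 and 1 (AVC) and 5 and 3 (OFT), against 26.2% and 16.9% of all genes, and 26.6% and 17.0%. The netrin receptor gene *Unc5b* was listed at 381 TPM (AVC), 247 (OFT), 22.1 (atria), 22.7 (ventricles) and 49.9 (null), and was lower in the null than in the AVC by 2.93 on the log2 scale (exact p = 0.000152). Its ligand gene *Ntn1* was at 34.1 TPM (AVC), 4.94 (OFT), 21.2 (atria), 50.7 (ventricles) and 98.9 (null), and was lower in the OFT than in the AVC (exact p = 0.000645). Of the other guidance genes, 2 of 16 tested were called higher in the OFT than in the AVC and 2 lower (5.22% and 7.35% of all genes). In the null 1 of 14 was called higher than in the AVC and 3 lower (11.9% and 12.7%). *L1cam*, a neural adhesion molecule that acts with neuropilin 1, was at 7.24 TPM (AVC) and 29.6 (OFT) with no tags in the chambers. Of 44 intracellular effectors, 43 had tags, and in the AVC 21 of 43 tested were called higher with 2 lower, while 19 of 43 were higher and 0 lower for the OFT, near the same shares of all genes for the higher calls. With TMM the effector counts were 14 and 6 (AVC) and 14 and 5 (OFT). The median log2 ratios of the effectors were 1.30 (AVC) and 1.26 (OFT), and those of the other guidance genes 0.80 in both, against 0.93 and 0.82 for all genes. *Dpysl3*, a collapsin response mediator downstream of semaphorins, was at 898 TPM (AVC) and 497 (OFT) against 23.4 and 76.9 TPM in the chambers. Between the OFT and the AVC 1 effector of 42 was called higher and 0 lower (5.22% and 7.35% of all genes), and in the null 4 of 43 were called higher and 4 lower (11.9% and 12.7%).

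Tags on the opposite strand of these genes were counted apart, since Tag-seq keeps the strand. A total of 37 of the 60 genes had antisense tags in some library. For each 100 sense tags there were 17.2 (AVC), 14.4 (OFT), 5.0 (atria), 5.02 (ventricles) and 23.2 (null) antisense tags. Among all listed tags, antisense matches were also fewest in the chambers and most frequent in the null. They formed 6.42% (AVC), 7.06% (OFT), 3.28% (atria), 3.93% (ventricles) and 9.58% (null) of listed tags. The share of all genes with antisense tags was not computed. *Robo1* held most antisense tags of the 60 genes in the AVC, with 842 of 1262 there. Its main antisense tag is shown because it matched the sense tags in level.
Robo1 antisense: CATGactaaagattcattttg
It was counted 778 (AVC), 361 (OFT), 19 (atria), 27 (ventricles) and 773 (null) times. The antisense level of *Robo1* was, like its sense level, higher in the AVC than in the OFT and higher in both than in either chamber. In the null it stood at 61.4 TPM beside 144 TPM of sense tags. These values were not tested.

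**Figure D5:**
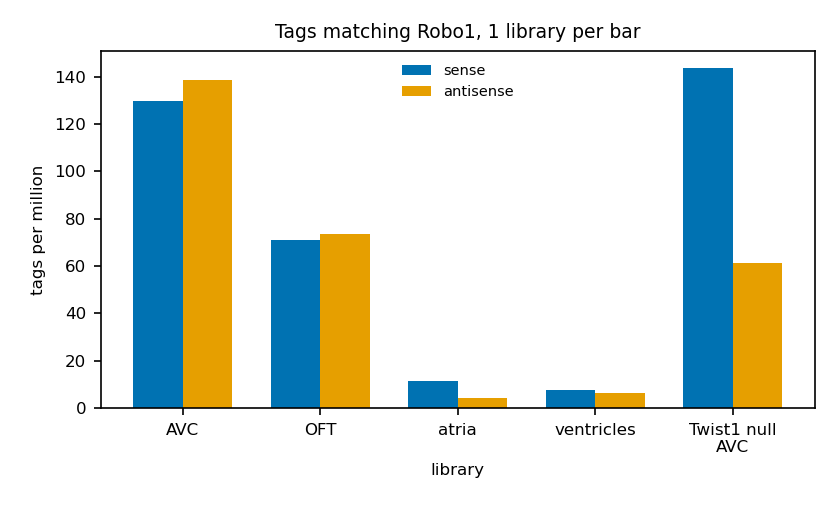
Sense and antisense tags of *Robo1* in TPM, with 1 bar per strand and library and no error bars, as each library was made once. The pair of bars is near equal in the AVC (129.7 and 139 TPM) and the OFT (71.0 and 73.5 TPM), and unequal in the null (144 and 61.4 TPM).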

How the data were processed

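Tag-seq libraries were made from E10.5 hearts, 1 per group, after blood had been washed out of the chambers. The deposited files hold raw counts per 17-base tag type, and the authors kept only tag types with more than 5 tags. Per the labels the build was mm9, but the files carry no coordinates. Per the study's methods the reads went through Bustard and ELAND, and the authors mapped tags to RefSeq genes in DiscoverySpace; that gene mapping was not used here. Virtual tags were cut at every NlaIII site of 33363 RefSeq-linked GENCODE M21 transcripts (GRCm38), and tags that matched 1 gene on the sense strand were summed per gene. Of all listed tags, 70.7% to 74.5% matched 1 gene. Depth ran from 4223810 to 12977237 listed tags, which sets the smallest listed level at 0.462 to 1.42 TPM.

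Two-sided exact tests (edgeR 4.0.16 in R 4.3.3, dispersion 0.12 as in the study's methods, library size the listed tags) ran over 12451 to 12963 genes, with Benjamini-Hochberg adjustment over all of them. A quasi-likelihood fit needs replicates and could not be made. Tested on simulated data, 71.5% (AVC against chambers, 12503 genes), 78.5% (OFT against chambers, 12451), 74.0% (OFT against AVC, 12541) and 72.0% (null against AVC, 12963) of 200 genes changed 4-fold were recovered. The changed genes were drawn from those with at least 50 tags in the libraries compared. Counts were simulated at the dispersion that the test assumes and without the listing threshold. These shares therefore do not describe genes with few tags. Each result was recomputed under up to 19 other settings. Those with the atria alone or the ventricles alone were run only in the comparisons against the chambers. Of the settings, 4 were chosen after seeing the data: 5 tags for each unlisted tag type, the same with TMM, and loess correction for tag GC with and without TMM. DESeq2 1.42.0 gave size factors only.

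The genes and lists were chosen with earlier results of these data known. All genes with tags are given by family, ratios with p only where called, and from each pathway list at most the 3 genes of smallest p in a comparison.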

Additional observations from a re-analysis of the deposited data

Results flagged for a closer look

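Antisense tags lie outside the comparisons above, and the 3 genes with the most such tags summed over the 5 libraries are given here because a signal was listed in data that no comparison used. *Robo1* antisense tags reached 139 TPM (AVC), against 73.5 TPM (OFT), 4.07 (atria), 6.39 (ventricles) and 61.4 (null). *Efnb2* antisense tags were highest in the null at 31.1 TPM, against 5.27 TPM (AVC), 16.3 (OFT), 6.64 (atria) and 3.79 (ventricles). *Sema4b* antisense tags were also highest in the null at 19.7 TPM, against 2.57 to 6.63 TPM in the other 4 libraries. *Sema3c*, with fewer antisense tags in all, reached 23.7 TPM (OFT), against 5.10 TPM (AVC), 9.71 (null) and none listed in the chambers. With 1 library per group these levels have no replicate check, and differences between libraries were not tested. Antisense matches among all listed tags were also most frequent in the null, at 9.58%, against 3.28% (atria) to 7.06% (OFT) in the wild-type libraries.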

How the results depend on the processing

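Of 83 called ratios under up to 19 alternatives, 1280 of 1484 values kept direction and call, 195 kept direction without the call and 9 reversed, and 21 ratios kept both throughout. In the order AVC against chambers, OFT against chambers, OFT against AVC and null against AVC, the counts called higher were 30, 27, 2 and 4, and lower 2, 4, 8 and 6. Of all genes, 43.4%, 40.6%, 5.22% and 11.9% were called higher, and 8.12%, 8.88%, 7.35% and 12.7% lower. Percentages in brackets below are shares of all genes under the same setting. At dispersion 0.4 the higher counts were 18 (20.3%), 13 (19.4%), 1 (2.46%) and 1 (3.90%). The lower counts were 5 in OFT against AVC (3.01%) and 1 in the null (2.36%), where dispersion 0.05 gave 15 (23.2%). With 5 tags for each unlisted tag type, 19 were higher in the AVC (28.0%) and 2 in the null (5.89%). In the first 3 comparisons 1 (5.34%), 2 (5.69%) and 4 (1.99%) were lower. Adding TMM gave 9 (10.7%), 12 (11.5%) and 2 (8.38%) higher in the AVC, the OFT and the null, and 3 lower in OFT against AVC (1.49%). For lower calls in the AVC, TMM gave 5 (16.9%), DESeq2 size factors 5 (16.5%) and thinning to equal depth 4 (8.53%). Genes with at least 50 tags (6.55%), tag types over 10 tags (8.95%) and last sites alone (9.06%) gave 1 each. Genes with at least 50 tags left 2 lower in the OFT (7.48%) and 3 in OFT against AVC (2.16%). Tag types over 10 tags gave 4 higher in OFT against AVC (572 of 11441 genes). Last sites alone gave 2 lower in the OFT (10.3%) and 11 in the null (17.3%). At an adjusted p under 0.05, OFT against AVC held 1 higher (1.24%) and 4 lower (1.88%), and the null 1 higher (5.06%) and 3 lower (3.93%).

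With 5 tags for each unlisted tag type and TMM, log2 ratios reversed for *Sema6a* (-0.036), *Sema5a* (-0.88), *Sema4a* (-0.10), *Ephb2* (-0.29) and *Sema7a* (-0.51) in the AVC, and for *Sema5a* (-0.57) and *Ephb2* (-0.21) in the OFT. *Epha2* in the AVC reversed with GC correction and TMM (-0.13), and *Sema3d* in the OFT without tags beginning with T (1.34). The cause was not tested. TMM moved the median of all genes by -0.91 (AVC), -0.81 (OFT) and 0.24 (null) on the log2 scale. No paired analysis was possible because each group has 1 library. Levels under the listing threshold are not seen, which limits ratios of low genes most.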
